A study of Solanum lycopersicum with 27 samples.

Results

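The departure of the double mutant rin/tdr4-1 from the sum of its single-mutant changes was examined in tomato (Solanum lycopersicum) fruit at 34 days post anthesis (dpa). It rests on 12 of the 27 RNA sequencing libraries of the series, chosen by genotype and age alone, with 3 libraries each of rin/tdr4-1, rin-1, tdr4-1 and wild type (WT). The cultivar was Ailsa Craig throughout and no treatment was given, and 34 dpa is labelled the breaker stage, when the first ripening colour shows. The other groups read here were dml2-3 and nor-1 at 34 dpa, and rin/tdr4-1, dml2-3 and WT at 25 dpa, again with 3 libraries each. The labels do not say how the alleles were made, whether the rin allele of the double mutant is rin-1, or whether the replicates of a group are separate plants. The p-values therefore describe the spread between libraries, which may be technical.

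RIN and TDR4 (also called FUL1) are MADS-box transcription factors, a family whose members bind DNA as dimers and larger complexes. RIN is a central activator of tomato ripening, and FRUITFULL-type proteins such as TDR4 are known partners of it in such complexes. NOR is a NAC transcription factor of ripening, and DML2 is a DNA demethylase that removes methylation from promoters during ripening. If 2 losses are taken to act independently, the change in the double mutant on a log scale is the sum of the changes in the single mutants. A departure from that sum is the same as a difference in the effect of one loss with and without the other.

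Each library was represented by its FPKM values (sequenced fragments per unit of gene length and of library size), which keep no read numbers, so the depth is unknown. Replicates within the 4 groups correlated at 0.984 to 0.995 across genes. The 100 most abundant genes held 30.4 to 31.1% of the FPKM total in rin/tdr4-1, 38.9 to 39.8% in rin-1, 44.9 to 47.5% in tdr4-1 and 40.8 to 44.3% in WT. The gene with the highest mean over the 12 libraries alone held 8.8 to 9.6% of the total in rin/tdr4-1, 14.5 to 15.6% in rin-1, 5.62 to 7.06% in tdr4-1 and 4.03 to 4.9% in WT. Since these shares lower or raise the FPKM of all other genes, the main counts below were also made after division by size factors (the median ratio of each library to the average library). No source used here pairs the gene identifiers with names, so the transcripts of the mutated genes could not be read as a check of the labels, no list of ripening genes or of markers of fruit tissues could be filled, and no role can be given for the genes named below. In bulk fruit RNA, a lower level from fewer cells of a type and one from less RNA per cell cannot be told apart.

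Most genes departed from the sum. Of 17681 genes tested, 13368 were called in either direction (75.6%, limma adjusted p under 0.05), 9315 above (52.7%) and 4053 below (22.9%) the sum. The median departure was 0.39 on the log2(FPKM + 1) scale, and 0.036 after division by size factors, which centre the changes by construction. With size factors 12358 genes were called (69.9%), 6344 above and 6014 below. The size factors were 1.32 to 1.33 in rin/tdr4-1, 1.07 in rin-1, 0.797 to 0.83 in tdr4-1 and 0.845 to 0.92 in WT. More genes were called above than below the sum under 2 other scalings as well. There were 7808 above and 5184 below under quantile scaling, and 10830 above and 3233 below under TPM (FPKM rescaled to equal totals). TPM keeps the share of each gene within its library, so it does not offset the unequal shares of the most abundant genes.

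Departures of at least 2-fold were found for 5948 genes (33.6%), 3734 above and 2214 below the sum. With size factors 4932 genes passed this rule (27.9%), 2027 above and 2905 below. Quantile scaling gave 2772 above and 2560 below, and TPM 5126 above and 1908 below, so the balance turned with size factors and not with these 2 scalings. The 2-fold rule was passed in the same direction as deposited and with size factors by 4241 genes (24%), 2027 above and 2214 below. These are all the genes above the sum with size factors and all those below it as deposited. The set thus takes the stricter scaling on each side, and its balance follows from that. Among all tested genes the absolute departure had a median of 0.71 and an upper quartile of 1.24 on the log2 scale.

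**Figure D1:**
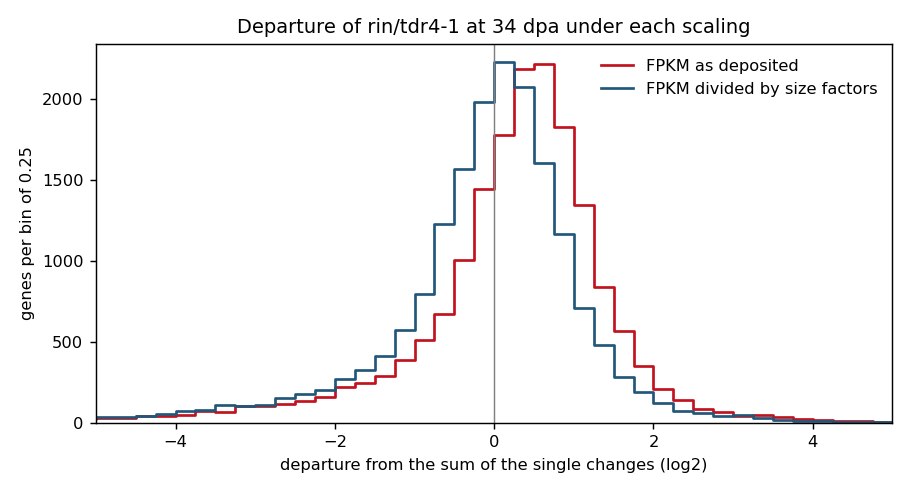
Number of genes (vertical axis) by departure of rin/tdr4-1 from the sum of the single-mutant changes on the log2 scale (horizontal axis, bins of 0.25), for 17681 genes with FPKM as deposited and with FPKM divided by size factors. The deposited values lie to the right, with a median of 0.39 against 0.036, and the longer tail runs to negative departures under both scalings; the genes beyond 5 on either side, 186 as deposited and 219 with size factors, are not drawn.

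Among genes that met the conditions for naming (called in the same direction as deposited and with size factors, a mean of at least 10 FPKM in 1 of the 4 groups, a sum of at least 0 and the same sign with a pseudocount of 0.1), Solyc06g006000.3 had the largest positive departure. It was high in the double mutant alone. It stood at 143, 144 and 152 FPKM in rin/tdr4-1, at 2.92, 1.08 and 2 FPKM in rin-1, at 1.55, 0.97 and 1.44 FPKM in tdr4-1 and at 2.6, 3.27 and 3.01 FPKM in WT. All double-mutant libraries lay far above the other 9, while the single mutants lay below WT, apart from replicate 1 of rin-1, which was within the WT range. The departure was 6.44 (SE 0.263, limma adjusted p = 1.29e-09). Adding tdr4-1 raised the gene by 5.66 in the rin-1 background (SE 0.186, adjusted p = 1.47e-10) and changed it by -0.78 in the WT background (SE 0.186, adjusted p = 0.00523). The change of -0.44 in rin-1 against WT (SE 0.186, adjusted p = 0.048) lost its call under 14 of 21 alternatives (adjusted p from 0.000156 to 0.208) and was -0.20 without replicate 2 of rin-1 and -1.06 with quantile scaling.

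The same gene was already abundant at 25 dpa, before ripening. It stood there at 181, 162 and 167 FPKM in rin/tdr4-1 and at 181, 175 and 146 FPKM in WT, which overlap (log2 difference 0.026, SE 0.0908, limma adjusted p = 0.844). At 34 dpa the double mutant was at a level near that of unripe fruit. Among the groups not used in the departure, dml2-3 held 137, 82.7 and 66.6 FPKM at 34 dpa, while nor-1 held 1.43, 0.47 and 0.81 FPKM.

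Solyc03g097580.4 followed it among the genes that met these conditions. It stood at 211, 206 and 201 FPKM in rin/tdr4-1, at 2.34, 1.8 and 1.67 FPKM in rin-1, at 0.14, 0.26 and 0.22 FPKM in tdr4-1 and at 0.33, 0.3 and 0.11 FPKM in WT. The double mutant stood apart again, with rin-1 a little above WT and tdr4-1 overlapping WT. The departure was 6.19 (SE 0.139, limma adjusted p = 9.93e-12). In rin-1 it exceeded WT by 1.23 (SE 0.0983, limma adjusted p = 2.88e-07), a size that ran from 0.65 with quantile scaling to 2.61 with a pseudocount of 0.1. At 25 dpa it was at 82.4, 72.9 and 84.2 FPKM in rin/tdr4-1 and at 45.6, 53.7 and 47.7 FPKM in WT, without overlap (log2 difference 0.69, SE 0.0838, adjusted p = 0.000645). Unlike the previous gene it was low in dml2-3 at 34 dpa, at 0.29, 0.1 and 0.35 FPKM.

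The largest negative departures under the same conditions had another form: both genes were high in each single mutant and low in the double mutant and in WT. Solyc08g007820.1 stood at 1.66, 1.36 and 1.68 FPKM in rin/tdr4-1, at 87.8, 94.3 and 86.2 FPKM in rin-1, at 41.0, 38.1 and 44.4 FPKM in tdr4-1 and at 1.36, 0.86 and 0.34 FPKM in WT. The sum of the single changes would place the double mutant at 11.04 on the log2 scale, and its mean was 1.36, a departure of -9.68 (SE 0.225, limma adjusted p = 1.31e-11). Adding tdr4-1 changed the gene by -5.14 in the rin-1 background (SE 0.159, adjusted p = 9.13e-11) and by 4.54 in the WT background (SE 0.159, adjusted p = 3.02e-09).

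Solyc10g050970.1 had the same form. It stood at 1.09, 1.11 and 1.13 FPKM in rin/tdr4-1, at 102, 106 and 89.9 FPKM in rin-1, at 31.2, 31.2 and 39.0 FPKM in tdr4-1 and at 1.57, 2.36 and 1.06 FPKM in WT. The double mutant overlapped WT, and both single mutants lay above all of these libraries. The departure was -9.30 (SE 0.213, limma adjusted p = 1.2e-11), with a tdr4-1 change of -5.57 in the rin-1 background (SE 0.151, adjusted p = 3.16e-11) and of 3.73 in the WT background (SE 0.151, adjusted p = 8.41e-09).

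Both of these genes were lower in the double mutant than in WT at 25 dpa as well. Solyc08g007820.1 stood there at 1.33, 1.73 and 0.83 FPKM in rin/tdr4-1 and at 22.4, 27 and 27.9 FPKM in WT (log2 difference -3.56, SE 0.157, limma adjusted p = 3.05e-06). Solyc10g050970.1 stood at 5.37, 4.91 and 5.38 FPKM in rin/tdr4-1 and at 190, 198 and 193 FPKM in WT (-4.97, SE 0.0572, adjusted p = 1.5e-08). In nor-1 at 34 dpa the same genes reached 122 to 124 FPKM and 105 to 112 FPKM, and in dml2-3 they were at 13.1 to 15.5 and 14.2 to 16.3 FPKM.

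**Figure D2:**
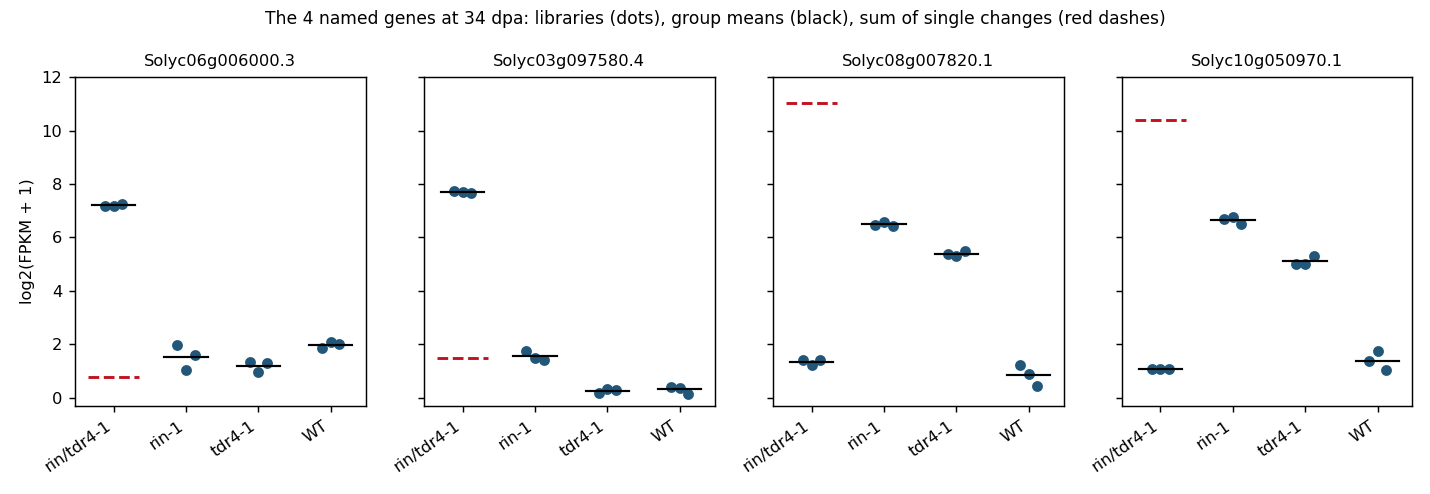
Levels of the 4 named genes at 34 dpa as log2(FPKM + 1) (vertical axis) in rin/tdr4-1, rin-1, tdr4-1 and WT (horizontal axis); dots are libraries, black bars are means of 3, and the red dashes mark where the sum of the single-mutant changes would place the double mutant. The double mutant lies 6.44 and 6.19 above the dashes for the first and second genes, and -9.68 and -9.30 from them for the other two.

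If the double mutant carries rin-1, the departure can be read as the tdr4-1 effect in the rin-1 background minus that in the WT background. These effects share no libraries. Adding tdr4-1 called 4205 genes (23.8%) at 2-fold or more in the rin-1 background, 2516 higher and 1689 lower, against 894 genes (5.06%) in the WT background, 708 higher and 186 lower. The SD of the log2 change over all 17681 genes was 1.08 in the rin-1 background and 0.521 in the WT background. With size factors 3619 genes passed in the rin-1 background, 1472 higher and 2147 lower, and 998 in the WT background, 835 higher and 163 lower.

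Where tdr4-1 had a 2-fold effect in both backgrounds, it mostly went opposite ways. Of the 894 genes called in the WT background, 474 (53%) were called in the opposite direction in the rin-1 background and 81 (9.06%) in the same direction. The commonest case, with 400 genes, was lower in the rin-1 background and higher in the WT background, and 74 genes went the other way. Among the genes called in the rin-1 background 1.93% were called in the same direction in the WT background. Over all 17681 genes, 23.8% were called in the rin-1 background and 5.06% in the WT background, in either direction. The 1.93% is therefore bounded by the few calls in the WT background. Across genes, which are not independent replicates, the changes in the 2 backgrounds correlated at -0.392 (Pearson) and -0.356 (Spearman), and at -0.392 and -0.366 with size factors. With size factors 545 genes went opposite ways and 76 the same way.

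The effect of rin kept its direction more often. Adding rin called 6622 genes (37.5%) at 2-fold or more in the tdr4-1 background, 5386 higher and 1236 lower, and 4651 (26.3%) in the WT background, 3680 higher and 971 lower. Of these, 2196 were called in both backgrounds in the same direction, 33.2% of the calls in the tdr4-1 background and 47.2% of those in the WT background, and 413 in opposite directions. The SDs of the log2 change were 1.21 and 1.16, and the changes correlated across genes at 0.327 (Pearson) and 0.337 (Spearman), or at 0.351 and 0.378 with size factors. Of the opposite calls, 343 genes were lower in the tdr4-1 background and higher in the WT background, and 70 went the other way. Under size factors, 2437 genes rose and 2395 fell in the tdr4-1 background, and 2962 rose and 1567 fell in the WT background. Both backgrounds then called 1665 genes in the same direction, 36.8% of the calls in the WT background, and 525 in opposite directions.

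**Figure D3:**
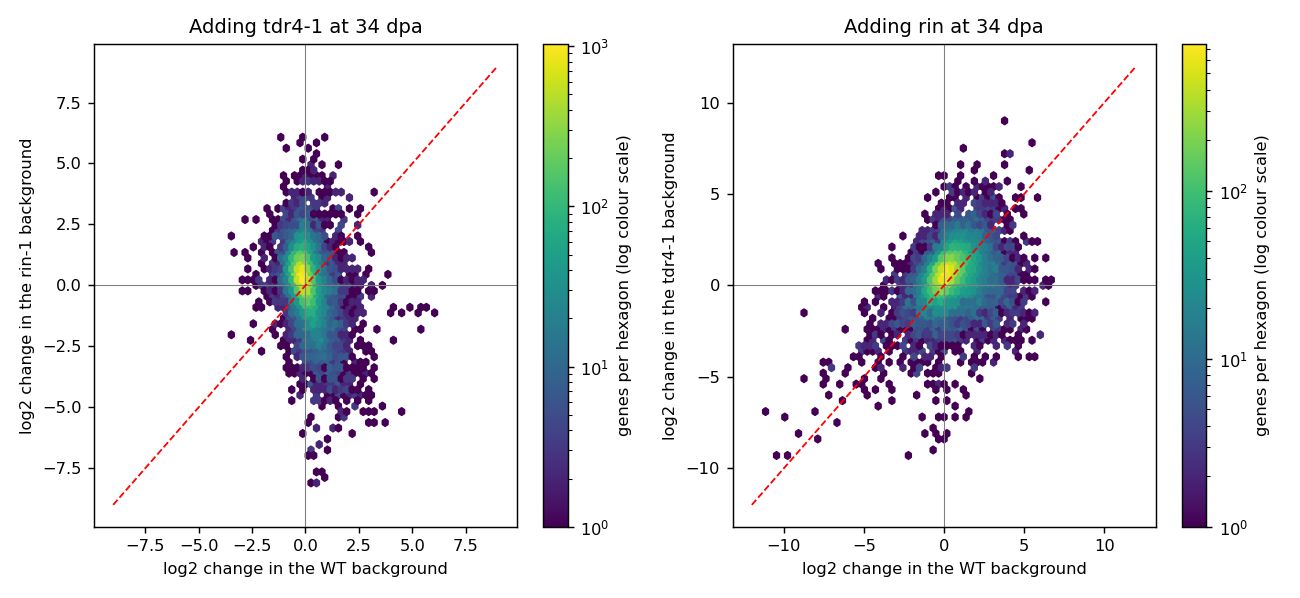
Log2 change on adding tdr4-1 in the rin-1 background (left, vertical axis) against the WT background (horizontal axis), and on adding rin in the tdr4-1 background (right, vertical axis) against the WT background, for 17681 genes; colour gives genes per hexagon on a log scale, and genes with no departure lie on the red dashed line. The tdr4-1 cloud is taller than wide, with SDs of 1.08 and 0.521, and leans against the line, while the rin cloud leans along it.

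The genes departing at 2-fold or more were sorted by which genotype stood apart, using the 4 pairwise changes at the 2-fold rule. This sorting is a description without a test, and a change that did not pass the rule is not shown to be absent. Differences in the level of a class between these 4 genotypes, given below, follow from the sorting. The double mutant alone was high for 1456 genes and alone low for 235. With size factors these counts were 679 and 458, with 645 and 211 genes in the class both as deposited and with size factors.

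A single genotype also stood apart in other ways. The rin-1 mutant alone was high for 640 genes (676 with size factors) and low for 161 (165). The tdr4-1 mutant alone was high for 67 genes and low for 17. WT alone was low for 53 genes, which either loss raised and the second loss did not change past the rule, and high for 35. Both single mutants were high, with the double mutant and WT lower, for 203 genes (296 with size factors), and the mirror case held for 26 (17). In 263 genes (130 with size factors) rin-1 was above WT and the double mutant was higher again, and in 48 (85) rin-1 was below WT and the double mutant lower again. The remaining 2744 genes had other combinations, among them genes that departed although no pairwise change passed the rule.

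**Figure D4:**
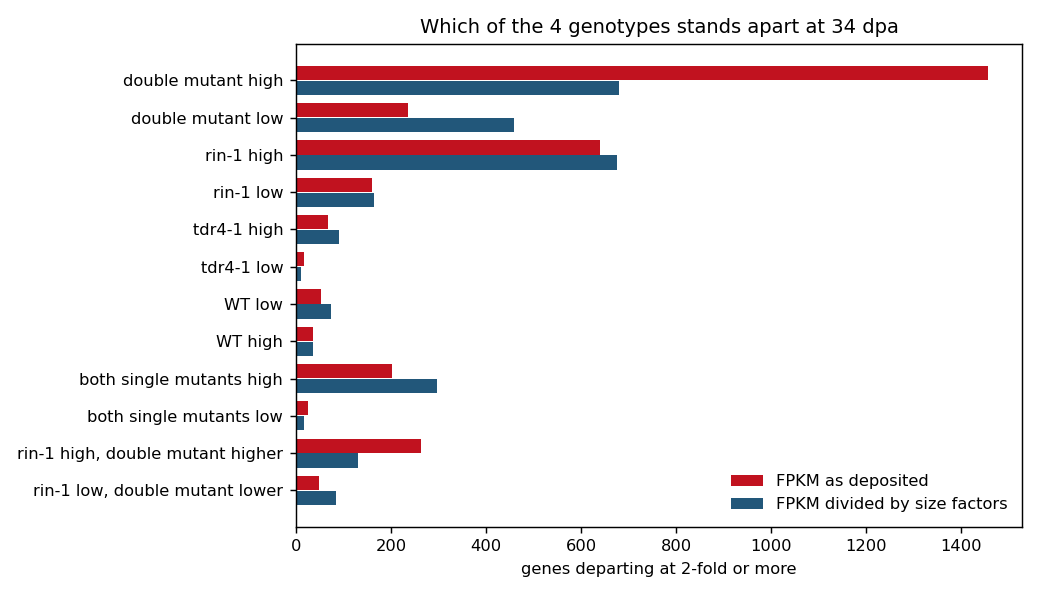
Number of genes departing at 2-fold or more (horizontal axis) by the genotype that stood apart at 34 dpa (vertical axis), with FPKM as deposited and after division by size factors. Among the classes drawn, the double mutant alone being high is the commonest as deposited, with 1456 genes. It falls to 679 with size factors, near the 676 genes high in rin-1 alone. The genes with other combinations, 2744 as deposited and 2214 with size factors, are more numerous and are not drawn.

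Genes low in the double mutant alone were abundant in every other genotype of the comparison. Over the 211 genes of this class the median level was 17.0 to 18.0 FPKM in the rin/tdr4-1 libraries, 82.6 to 83.2 FPKM in rin-1, 81.7 to 87.2 FPKM in tdr4-1 and 75.4 to 80.5 FPKM in WT. The groups that played no part in the sorting lay on either side. The median was 18.2 to 19.4 FPKM in dml2-3 and 73.9 to 74.3 FPKM in nor-1 at 34 dpa, and it was 25.5 to 25.9 FPKM in rin/tdr4-1 and 24.3 to 26 FPKM in WT at 25 dpa. In a comparison of dml2-3 with nor-1 at 34 dpa, chosen after these levels were seen, 156 of 209 class members tested were lower in dml2-3 at 2-fold or more and 5 were higher. Over all 17023 genes tested there, 8.25% were lower and 20.7% higher by the same rule, as against 74.6% and 2.39% of the class.

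Genes high in the double mutant alone showed the mirror picture. The median over 645 genes was 11.9 to 12.9 FPKM in rin/tdr4-1, 2.17 to 2.23 FPKM in rin-1, 1.23 to 1.35 FPKM in tdr4-1 and 1.46 to 1.64 FPKM in WT. At 34 dpa it was 6.44 to 7.07 FPKM in dml2-3 and 1.79 to 1.9 FPKM in nor-1. At 25 dpa it was 8.95 to 9.17 FPKM in rin/tdr4-1 and 8.13 to 8.81 FPKM in WT. In dml2-3 against nor-1, the comparison chosen after levels were seen, 352 of 527 members tested (66.8%) were higher at 2-fold or more. A further 11 (2.09%) were lower, against 20.7% higher and 8.25% lower over all genes tested. With size factors 263 members (49.9%, against 11.4% of all genes) were higher. These are shares of the tested members only. The rest of the 645 did not reach 1 FPKM in 3 of the 6 libraries compared. A member below 1 FPKM in nor-1 could be tested only through dml2-3, which favours members higher there.

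At 25 dpa the members of these classes differed between the double mutant and WT in both directions. Over all 17693 genes tested at that age, 19.5% were higher and 17.6% lower in the double mutant (limma adjusted p under 0.05). Of 587 tested genes high in the double mutant alone at 34 dpa, 32% were higher and 16.5% lower at 25 dpa. Their median difference was 0.12 (log2). Of 197 tested genes low in the double mutant alone, 34% were higher and 25.4% lower, and the median difference was 0.050 (log2).

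Genes high in both single mutants differed at 25 dpa as well. At 34 dpa the median over 195 genes was 4.29 to 4.72 FPKM in rin/tdr4-1, 49 to 55.9 FPKM in rin-1, 20 to 21.2 FPKM in tdr4-1 and 4.02 to 4.04 FPKM in WT. The nor-1 libraries, not used in the sorting, held 60.1 to 62.4 FPKM, the highest level of any group, and dml2-3 held 14.8 to 15 FPKM. At 25 dpa the double mutant held 8.81 to 8.9 FPKM and WT 25.8 to 28.0 FPKM. Of 179 members tested at 25 dpa, 138 (77.1%) were lower in the double mutant and 16 (8.94%) higher, with a median log2 difference of -1.84. At 2-fold or more, 69.8% of them were lower, against 5.07% of all genes tested at that age.

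The genes high in rin-1 alone were also mostly lower in the double mutant at 25 dpa. Their median over 480 genes at 34 dpa was 2.98 to 3.3 FPKM in rin/tdr4-1, 13.9 to 14.6 FPKM in rin-1, 2.09 to 2.26 FPKM in tdr4-1 and 1.5 to 1.56 FPKM in WT. At 25 dpa it was 6 to 6.16 FPKM in rin/tdr4-1 and 9.89 to 10.4 FPKM in WT. Of 414 members tested, 272 (65.7%) were lower in the double mutant at 25 dpa and 35 (8.45%) higher, with a median of -0.64. Regardless of class, 2214 genes passed the 2-fold rule below the sum at 34 dpa, both as deposited and with size factors. Of these, 1992 could be tested at 25 dpa, where the double mutant was below WT for 55.1% and above it for 13.7%. Of 1915 tested genes above the sum by the same rule, 29.5% were higher and 13.3% lower. Over all genes tested at 25 dpa, 19.5% were higher and 17.6% lower. The libraries at 25 dpa share none with the departure at 34 dpa.

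**Figure D5:**
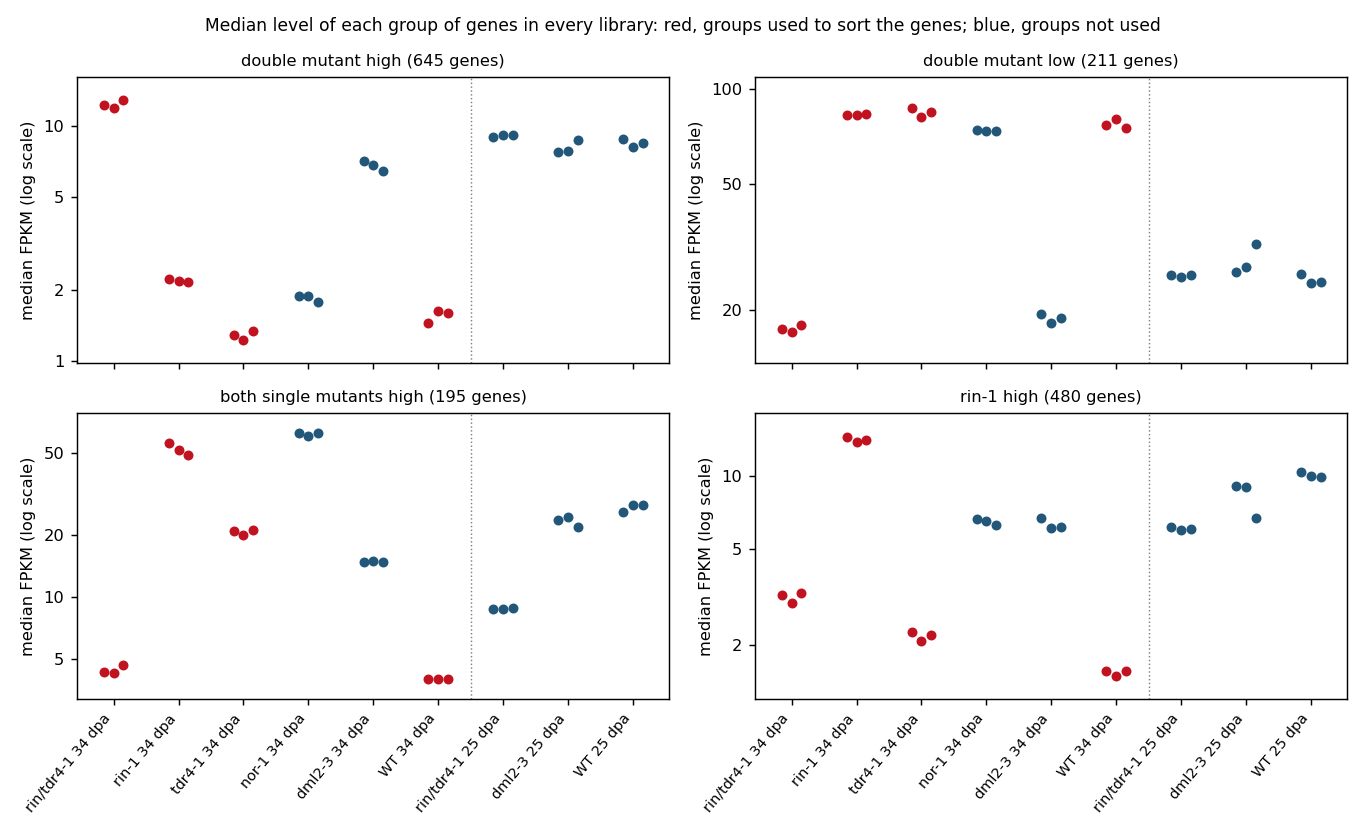
Median FPKM (vertical axis, log scale) over the genes of each class in each of the 27 libraries, by genotype and age (horizontal axis); red dots are the groups used to sort the genes and blue dots those that were not, and the dotted line separates 34 from 25 dpa. For genes high or low in the double mutant alone, dml2-3 at 34 dpa lies near the fruit at 25 dpa and nor-1 near WT at 34 dpa, while for genes high in both single mutants nor-1 is highest at 60.1 to 62.4 FPKM.

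The departing genes were spread over levels and chromosomes. Of 1529 genes with a mean of 100 FPKM or more over the 12 libraries, 10% lay above and 22.5% below the sum at 2-fold or more with size factors and without them, against 14.5% and 13.5% of 4630 genes under 5 FPKM. By the chromosome number carried in the identifiers, 20.1% (chromosome 11) to 26% (chromosome 12) of tested genes departed by this rule on the 12 numbered chromosomes.

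The scale set some departures. For 182 genes the sum of the single changes lay below 0 on the log2(FPKM + 1) scale, where no level can lie, and 141 of them were called above the sum. None of the named genes was among them. At the other end, the sums corresponded to 2110 FPKM for Solyc08g007820.1 and 1330 FPKM for Solyc10g050970.1. Their highest libraries in the series held 124 FPKM (nor-1 at 34 dpa) and 198 FPKM (WT at 25 dpa). On mean FPKM without logarithms, 3727 of 3734 genes above the sum at 2-fold or more kept a positive departure and 2198 of 2214 below it kept a negative one.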

How the data were processed

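Total RNA of tomato fruits was sequenced, and the authors deposited 1 table of FPKM values with 1 column per library for 34075 genes. The submitters' processing notes list the tools Trimmomatic, STAR 2.5.4b, RSEM and DESeq2, with no role or order. The genome build and annotation were not given in the sources used here. Low values showed no steps of single reads (at most 3.22% of low genes shared a step), so no count test was used, and no 2 columns were identical.

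Groups and replicate numbers came from the sample titles. The 17681 genes that reached 1 FPKM in 3 or more of the 12 libraries were kept. Group means of log2(FPKM + 1) were fitted in a linear model with limma 3.58.1 in R 4.3.3, with a variance trend, and the Benjamini-Hochberg adjustment was made over all genes kept. A log2 change on this scale understates changes of genes near 1 FPKM. Genes were called at adjusted p under 0.05, and at 2-fold with an absolute log2 value of at least 1. The fit used only the 4 groups compared, because an earlier analysis found that 1 dml2-3 library at 25 dpa widens a spread shared by all 9 groups. Libraries at 25 dpa (6) and dml2-3 against nor-1 at 34 dpa (6) were fitted separately by the same method, the last added after values were seen. In these fits a gene below 1 FPKM throughout 1 group was tested only if all 3 libraries of the other group reached 1 FPKM. The fits were tested on simulated data. Members, classes and tests were chosen with earlier results of these data known.

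None of the identifiers matched the 41476 genes of the RefSeq table (SLM_r2.1), so the 2 largest positive and 2 largest negative departures were named. They had to be called in the same direction as deposited and with size factors, with a mean of at least 10 FPKM in 1 group, a sum of at least 0 and the same sign with a pseudocount of 0.1. Planned lists of ripening genes and of markers of other fruit tissues could not be filled. Alternatives were a pseudocount of 0.1, other filters, size factors, quantile scaling, TPM, all 27 libraries, a replicate block, no variance trend and leaving out each library.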

Additional observations from a re-analysis of the deposited data

Results flagged for a closer look

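The effect of tdr4-1 differed between the rin-1 and WT backgrounds by the test of the difference itself (limma, adjusted p under 0.05) for 13368 genes, and for each of the 4 named genes. The difference was 6.44 on the log2 scale for Solyc06g006000.3 and 6.19 for Solyc03g097580.4, which were high in the double mutant in 3 of 3 libraries. It was -9.68 for Solyc08g007820.1 and -9.30 for Solyc10g050970.1, which were high in 3 of 3 libraries of each single mutant. These are the departures described above, read as a difference between backgrounds. The 4 genes were named because this same test called them and for the size of the difference, so their calls were fixed beforehand.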

How the results depend on the processing

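The departures of the 4 named genes kept their direction and call under all 21 alternatives. Naming had required the call with size factors and the sign with a pseudocount of 0.1, so those outcomes were fixed beforehand. These genes were also picked for the largest departures, so their stability does not describe that of other genes. The number of genes departing ran from 10146 to 14472, and no count that summarises a comparison moved by more than 1.5 times when 1 library was left out or with the replicate block. The same held for the counts from the 12 libraries when all 27 libraries were fitted or without the variance trend, which were not run for the 25 dpa and the dml2-3 against nor-1 comparisons. With size factors the counts at 2-fold or more were 2027 above the sum, 1472 raised by tdr4-1 in the rin-1 background, 2437 raised and 2395 lowered by rin in the tdr4-1 background, 1567 lowered by rin in the WT background, and 679 high and 458 low in the double mutant alone. With quantile scaling they were 2373 raised and 2220 lowered by rin in the tdr4-1 background, 2369 raised and 1804 lowered by rin in the WT background, 1408 alike in both backgrounds, 860 high and 413 low in the double mutant alone and 247 low in rin-1 alone. With TPM 250 genes were low in rin-1 alone. With a mean of at least 5 FPKM, which tests fewer genes, 3522 were raised by rin in the tdr4-1 background, 1651 were raised by tdr4-1 in the rin-1 background, 837 were high in the double mutant alone and 386 in rin-1 alone. With a pseudocount of 0.1, 1159 genes were raised and 367 lowered by tdr4-1 in the WT background, 773 went opposite ways and 226 the same way. Apart from the stricter filter, the cause of these shifts was not tested.

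With the replicate number as a block 13195 genes departed, and no named gene's call changed. The numbers are taken as names only, since deviations of same-numbered libraries correlated between -0.0638 and 0.0829 over 18 pairs, and none exceeded 0.1. Among differences that were not called, leaving out 1 library changed the sign of that of Solyc03g097580.4 between tdr4-1 and WT, which ran from -0.13 to 0.0052, and of that of Solyc06g006000.3 between the double mutant and WT at 25 dpa, which ran from -0.068 to 0.085. Read depth is unknown, so levels below about 1 FPKM are the least certain.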
